A study of Mus musculus with 2 samples.

Results

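The genes of miR-143 and miR-145, and of miR-199 and miR-214, were followed in microRNA sequencing of mouse gastrocnemius, a calf muscle. These genes, Mir143, Mir145a, Mir145b, Mir199a-1, Mir199a-2, Mir199b and Mir214, were chosen by name, as microRNA (miRNA) genes known from smooth muscle, stroma and mesenchyme, and make up 7 of the 2202 miRNA genes counted. Earlier results of these data were known when the genes were chosen. The 2 libraries came from female B6CASTF1/J mice, a first-generation cross of C57BL/6 and CAST, at 10 days of age. They are labelled as biological replicates, read here as 1 animal each. No allele, agent or treatment is named, so the libraries form 1 group, and the comparisons are between replicates 1 and 2 as the labels number them. The labels give whole gastrocnemius tissue, which holds muscle fibres together with vessels and connective tissue. Replicate 1 held 3510897 sense reads on miRNA genes and replicate 2 held 3949733, and levels are reads per 1e6 of these (CPM). Mir206, a miRNA of skeletal muscle, was abundant, at 115948 and 95264 CPM in replicates 1 and 2.

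A miRNA is cut from a hairpin precursor, and the short arm that is kept guides the silencing of messenger RNAs that pair with its seed. Mir143 and Mir145a are neighbours known to be transcribed together under serum response factor and its partner myocardin, and their miRNAs favour the contractile state of vascular smooth muscle. The miR-199 genes lie on the strand opposite dynamin genes. Mir199a-2 and Mir214 are both cut from Dnm3os, a long noncoding RNA of mesenchyme that is known to be activated by the E-box binding factor Twist1 and to be needed for normal skeletal growth. In muscle, miR-214 is known to target Ezh2, a Polycomb methyltransferase, and in fibroblasts miR-199a-5p is known to target caveolin-1.

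The mature sequences come first because they decide which of these genes could be counted. The RefSeq sequence table used here (build GRCm38.p6) had entries for 4 of the 7 genes, given below 5′ to 3′ with the seed, bases 2 to 8, in capitals. The first is made by Mir199a-1 and Mir199a-2, the second by Mir199a-1, Mir199a-2 and Mir199b, and the others by Mir214 alone. The table had no entry for the 5′ arm of Mir199b, so that arm is not printed and its seed was not compared.

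miR-199a-5p: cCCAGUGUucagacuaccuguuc

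miR-199a-3p and miR-199b-3p: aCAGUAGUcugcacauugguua

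miR-214-5p: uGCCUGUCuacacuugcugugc

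miR-214-3p: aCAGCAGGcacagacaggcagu

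The 4 sequences had 4 different seeds. The RefSeq table without chromosome 18 held 1738 mature miRNAs. Among these the seed of miR-214-3p was also that of miR-761, whose gene Mir761 had 0 reads in either library. In that table the other 3 seeds occurred only in products of these genes. The exact sequence of miR-199a-3p lay in 3 annotated precursors (Mir199a-1, Mir199a-2 and Mir199b), that of miR-199a-5p in 2, and each miR-214 sequence in 1.

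The precursors show how far these copies reach, since the counting left out every read that matched more than 1 place. Capitals mark every base inside a stretch of 22 bases that recurs exactly in another annotated precursor. Mir214 has none and is not printed.

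Mir199a-1: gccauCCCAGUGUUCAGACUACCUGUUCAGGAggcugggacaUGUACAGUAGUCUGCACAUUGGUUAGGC

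Mir199a-2: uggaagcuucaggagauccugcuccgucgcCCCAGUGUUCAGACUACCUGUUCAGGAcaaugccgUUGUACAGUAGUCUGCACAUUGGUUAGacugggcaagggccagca

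Mir199b: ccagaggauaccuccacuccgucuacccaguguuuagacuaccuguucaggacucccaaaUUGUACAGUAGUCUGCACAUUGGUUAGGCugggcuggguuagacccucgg

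Copied stretches took 55 of 70 bases of Mir199a-1, 54 of 110 of Mir199a-2 and 29 of 110 of Mir199b. In Mir199a-1 and Mir199a-2 they covered both mature arms whole, and in Mir199b the 3′ arm. The 3 genes share stretches of up to 27 bases (Mir199a-2 with Mir199a-1 or Mir199b) and 28 bases (Mir199a-1 with Mir199b). Reads of such a stretch cannot be placed, so counts of the miR-199 genes are lower limits and their order is uncertain. Of windows of 22 bases, 13 of 49 in Mir199a-1, 12 of 89 in Mir199a-2 and 8 of 89 in Mir199b had a copy, against 0 in Mir214, Mir143, Mir145a and Mir145b. The search covered annotated precursors on both strands and no other part of the genome.

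**Figure D1:**
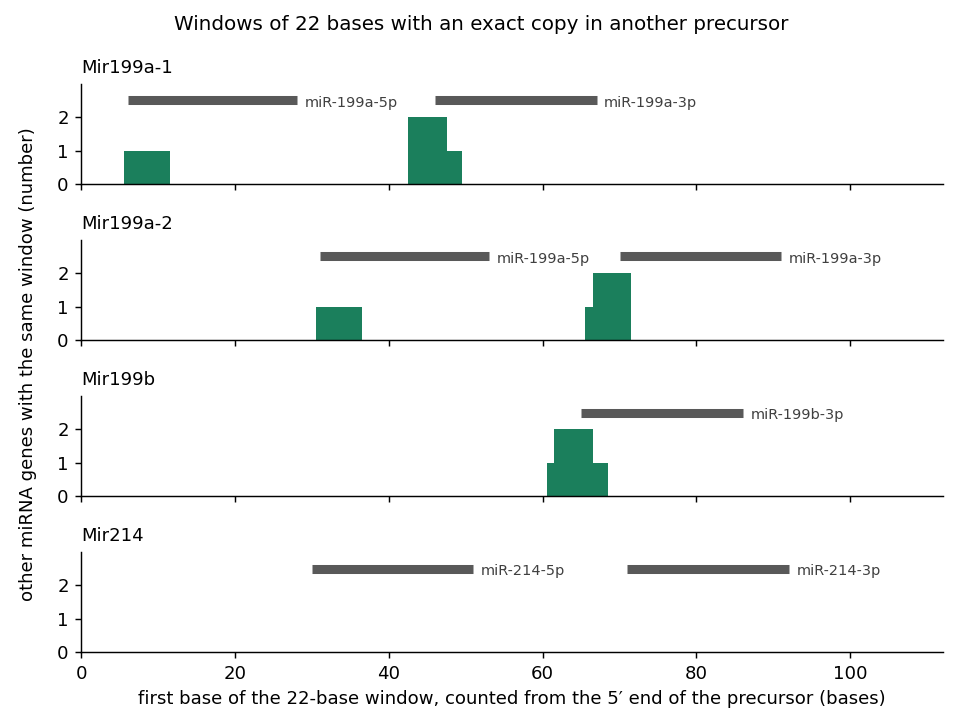
Number of other miRNA genes (vertical axis) that hold the same 22-base window, by the first base of the window counted from the 5′ end of the precursor (horizontal axis, bases); green bars are windows with a copy and grey bars the mature miRNAs. Copied windows stand at both arms of Mir199a-1 and Mir199a-2 and at the 3′ arm of Mir199b, and Mir214 has 0. No grey bar is drawn for the 5′ arm of Mir199b, which had no entry in the table used.

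Mir199a-2 and Mir214 share a host, so the RefSeq promoter window of Dnm3os (chr1:162217373-162217672, plus strand, build GRCm38.p6, 250 bases before to 50 after the start site) is shown. Capitals mark the E-box CANNTG, which is bound by Twist1 and other basic helix-loop-helix factors, and the CArG box bound by serum response factor. Both motifs read the same on either strand. The E-box was searched for because of Twist1, and the CArG box after the sequence had been seen.

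Dnm3os promoter: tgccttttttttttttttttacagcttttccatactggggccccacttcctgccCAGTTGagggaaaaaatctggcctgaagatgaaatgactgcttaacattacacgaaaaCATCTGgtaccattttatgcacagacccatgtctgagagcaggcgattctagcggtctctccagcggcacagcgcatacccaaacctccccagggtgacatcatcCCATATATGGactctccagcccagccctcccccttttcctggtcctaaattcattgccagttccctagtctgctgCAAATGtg

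The window held 3 E-boxes, at -196, -138 and 43 from the start site, and 1 CArG box, CCATATATGG, at -33. Outside chromosome 18, which was left out, at least 1 E-box occurred in 72.3% of 32851 promoter windows of this length and at least 3 in 17.6%. A CArG box occurred in 1.63%, a share that is no test of a motif chosen after this sequence had been seen. A match of letters does not show that a factor binds there, and no binding was measured here.

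By reads placed uniquely, Mir143 led the group. It had 80068 reads in replicate 1 and 115293 in replicate 2, or 22806 CPM (exact Poisson 95% interval 22648 to 22964) and 29190.1 CPM (29022 to 29359). The mean was 25998 ± 4515 CPM (SD, n = 2), which ranked Mir143 11th of all miRNA genes. Its neighbours in that order, Mir379 above (27877 ± 1633 CPM) and Mir99a below (23562 ± 893 CPM), overlapped with its range. Mir143 (ENSMUSG00000065445.3, chromosome 18, 61649196 to 61649258, minus strand, build mm10) is not inside another annotated gene. The long noncoding RNA Carmn, on the same strand, ends 366 bases from it.

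Mir145a, the partner of Mir143 with 1301 bases between them, gave far fewer reads. It had 2370 and 2771 reads in replicates 1 and 2, or 675 CPM (648 to 703) and 702 CPM (676 to 728). The mean of 688 ± 18.8 CPM (SD, n = 2) ranked 94th, and its neighbours in level, Mir501 (718 ± 58.4 CPM) and Mir484 (678 ± 39.5 CPM), overlapped with its range. Mir145a (ENSMUSG00000065592.2, chromosome 18, 61647825 to 61647894, minus strand) lies 352 bases from Bvht, a long noncoding RNA on the plus strand known from heart development. The share of Mir143 in reads on the pair was 97.1% (Wilson 95% interval 97.0% to 97.2%) and then 97.7% (97.6% to 97.7%). Neither precursor has a copied window of 22 bases.

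Mir145b (ENSMUSG00000098366.1, chromosome 18, 69022199 to 69022273, minus strand) lies away from the other 2 genes, with no annotated gene around it or within 10 kb. It had 0 reads in both libraries, so its level was at most 0.854 CPM (replicate 1) and 0.760 CPM (replicate 2) by the limit of 3 counts. The longest stretch it shares with Mir145a is 17 bases.

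Mir214 had the most uniquely placed reads of the miR-199 and miR-214 genes, a comparison in which the miR-199 counts are lower limits. It had 13694 reads in replicate 1 and 10983 in replicate 2, or 3900.4 CPM (exact Poisson 95% interval 3835 to 3966) and 2781 CPM (2729 to 2833). Its mean of 3341 ± 792 CPM (SD, n = 2) ranked 47th, between Mir652 (3533 ± 186 CPM) and Mirlet7e (3141 ± 91.8 CPM), and both overlapped with its range. Mir214 (ENSMUSG00000065516.1, chromosome 1, 162223368 to 162223477, plus strand) overlaps an exon of Dnm3os and lies opposite an intron of Dnm3, a dynamin gene.

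Mir199a-2, in an exon of the same host 5444 bases away (ENSMUSG00000070126.1, chromosome 1, 162217814 to 162217923, plus strand), had 195 and 163 reads. These are 55.5 CPM (48.0 to 63.9) in replicate 1 and 41.3 CPM (35.2 to 48.1) in replicate 2, with a mean of 48.4 ± 10.1 CPM (SD, n = 2), ranked 201st. Its neighbours in level, Mir669o (53.0 ± 4.41 CPM) and Mir874 (47.6 ± 5.71 CPM), were within its spread. Of the reads on Mir214 and Mir199a-2 together, Mir214 held 98.6% (Wilson 95% interval 98.4% to 98.8%) and 98.5% (98.3% to 98.7%). Because both arms of Mir199a-2 have copies elsewhere, this share describes counted reads and not the output of the host.

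Mir199b (ENSMUSG00000092807.1, chromosome 2, 32318460 to 32318569, plus strand), opposite an intron of Dnm1, had 268 and 284 reads, or 76.3 CPM (67.5 to 86.0) and 71.9 CPM (63.8 to 80.8). Its mean of 74.1 ± 3.13 CPM (SD, n = 2) was the highest of the miR-199 genes by uniquely placed reads and ranked 192nd, within the spread of Mir340 above it (75.1 ± 5.89 CPM) and apart from Mir30c-2 below it (69.1 ± 1.45 CPM). Mir199a-1 (ENSMUSG00000065547.1, chromosome 9, 21496495 to 21496564, minus strand), opposite an intron of Dnm2, had 1 read in each library, or 0.285 CPM (0.00721 to 1.59) and 0.253 CPM (0.00641 to 1.41). Together the miR-199 genes held 0.0132% of sense reads in replicate 1 and 0.0113% in replicate 2. Reads set aside for matching several places made up 42.6% of replicate 1 and 46.4% of replicate 2. How many of those came from miR-199 genes was not tested, since the files count them on no gene.

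Of the 7 genes, 5 reached 2 CPM in both libraries, as did 332 miRNA genes in all. The order of the 6 genes with reads, by uniquely placed reads from Mir143 through Mir214, Mir145a, Mir199b and Mir199a-2 to Mir199a-1, was the same in both libraries. No neighbours in it had overlapping values. The smallest step was from Mir199b to Mir199a-2, where the means differed by 1.53-fold. Counts over a hairpin sum the uniquely placed reads of both arms, so the levels are those of genes and not of single mature miRNAs. For Mir199a-1 and Mir199a-2 both arms, and for Mir199b the 3′ arm, lie in copied stretches. Reads that lie wholly within those stretches are missing from the counts, which also bears on the order of these genes.

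**Figure D2:**
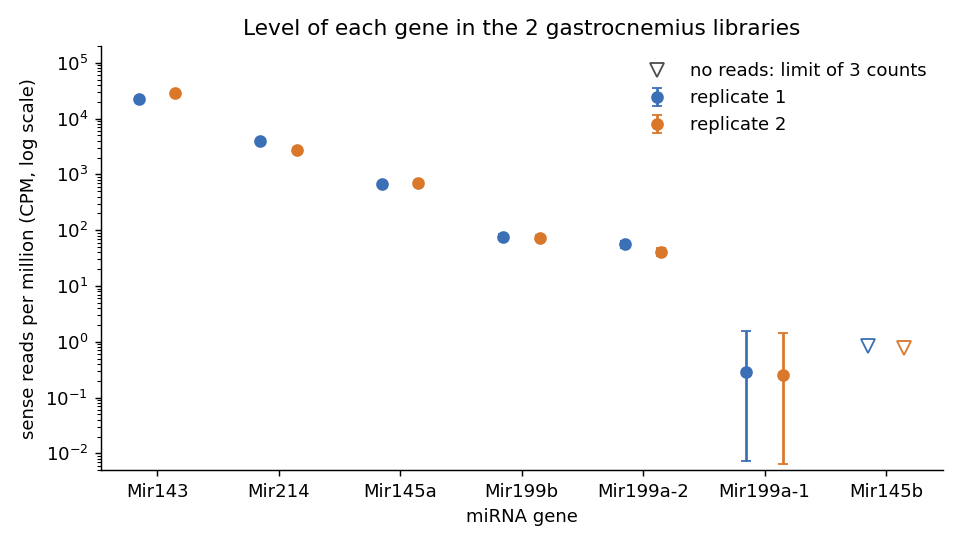
Level in CPM (log axis) of the 7 genes in replicate 1 (blue) and replicate 2 (orange), with exact Poisson 95% intervals that are narrower than the points at high counts; open triangles mark the limit of 3 counts where no read was found. Mir143 stands highest at 22806 and 29190.1 CPM, Mir199a-1 below 1 CPM, and Mir145b without reads.

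Between the libraries Mir143 and Mir214 shifted in opposite directions, with Mir143 higher and Mir214 lower in replicate 2. Mir143 was 1.28-fold higher in replicate 2 (95% interval 1.27 to 1.29), a log2 ratio of 0.36, with an exact p too small for the software to represent. Mir214 was 1.40-fold higher in replicate 1 (1.37 to 1.44), a log2 ratio (replicate 2 over 1) of -0.49, with an adjusted p of 2.62e-153 in the exact binomial test. Mir199a-2 was also higher in replicate 1, by 1.35-fold (1.09 to 1.67), with an exact adjusted p of 0.0154. With libraries scaled to all reads in the file the log2 ratios became 0.21 for Mir143 and -0.64 for Mir214. The test compares these 2 libraries and not conditions, and its intervals cover counting error only. Earlier results of these same libraries were known when the genes were chosen, so the p-values are no independent support for the opposite shifts.

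The remaining genes did not pass the threshold. Mir145a stood at 1.04-fold in replicate 2 over replicate 1 (0.983 to 1.10, exact adjusted p = 0.289), and when libraries were scaled to all reads in the file its log2 ratio turned from 0.056 to -0.094. Mir199b stood at 0.942-fold (0.794 to 1.12, exact adjusted p = 0.650). Mir199a-1 and Mir145b had fewer than 10 reads in both libraries together and were not tested. The intervals for Mir145a and Mir199b do not reach the folds of Mir143 and Mir214.

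Of the 5 genes tested, 1 was thus higher and 2 were lower in replicate 2 at an adjusted p under 0.05. Among all 395 miRNA genes tested, 17.0% were higher and 24.3% lower by the same rule, which becomes 32 higher and 146 lower genes with scaling to all reads, against 67 and 96. With a limit of 2-fold as well, 3.29% of all tested genes were higher and 3.80% lower, and 0 of the 5 were among them, although 3 of the 5 had an unadjusted p under 0.05. Their median log2 ratio was -0.086, beside -0.029 over all tested genes.

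Set against the spread common to many genes between these same 2 libraries, none of these differences passed. The biological coefficient of variation common to 320 genes was 0.188 between the 2 libraries, and edgeR's exact negative binomial test with that dispersion gave an adjusted p of 1 for each of the 5 genes. Its unadjusted p was 0.208 for Mir214, 0.315 for Mir199a-2, 0.357 for Mir143, 0.847 for Mir199b and 0.887 for Mir145a, so 0 of the 5 fell under 0.05. By this test 2.53% of all tested genes (10 of 395) were called. The dispersion was estimated from the same 2 libraries, so it takes in whatever difference exists between them. It is no separate measure of the spread between animals, and a difference of common size could hardly pass.

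**Figure D3:**
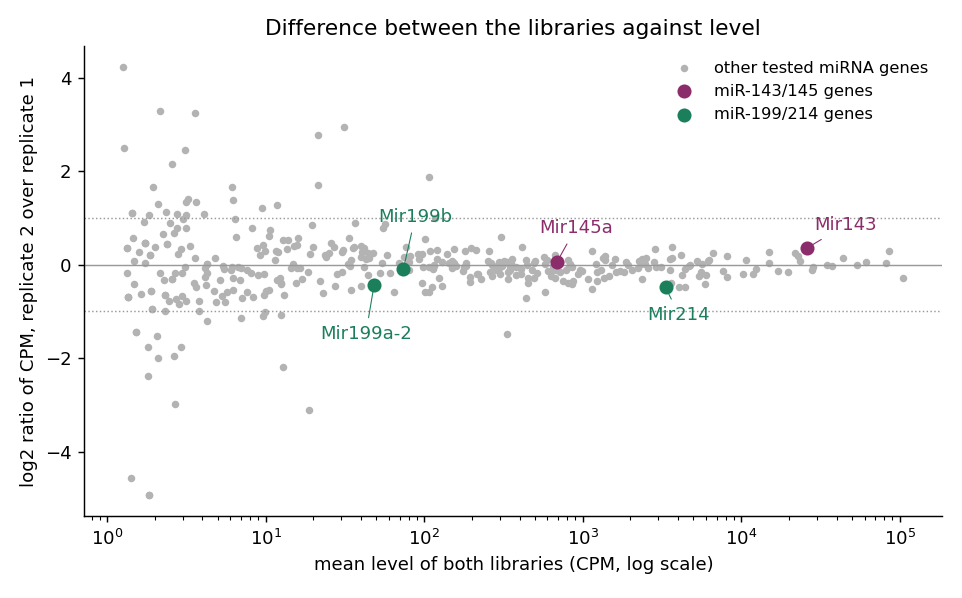
Log2 ratio of CPM, replicate 2 over replicate 1 (vertical axis), against the mean level (CPM, log axis) for 395 tested miRNA genes; purple points are Mir143 and Mir145a, green points Mir199a-2, Mir199b and Mir214, and dotted lines a 2-fold difference. Mir143 lies at 0.36 and Mir214 at -0.49.

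Over all 395 tested genes, 73 had a higher ratio than Mir143 and 59 a lower ratio than Mir214, so both lay well inside the distribution, whose log2 ratios ran from -0.999 at percentile 5 to 1.11 at percentile 95. Among the 181 tested genes of at least 100 CPM, a limit far below the levels of both, the range was narrower, from -0.47 at percentile 5 to 0.33 at percentile 95. There 7 genes had a higher ratio than Mir143 and 6 a lower ratio than Mir214. Mir145a had 54 of these genes above it and 126 below.

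Ratios of 2 genes within a library do not depend on the library total. Their changes follow from the folds given above for single genes and do not show which way either gene moved, and the shifts of Mir143 and Mir214 were known when the pairs were listed. There were 5.85 reads of Mir143 per read of Mir214 in replicate 1 and 10.5 in replicate 2, a change of 1.80-fold (95% interval 1.75 to 1.84). Of 10 pairs compared by Fisher's exact test with Benjamini-Hochberg adjustment over the pairs, 7 had an adjusted p under 0.05. Pairs of other miRNA genes were not compared, so this count is not shown to be particular to these genes. Singly, 17.0% of all 395 tested genes were called higher and 24.3% lower in replicate 2 by the exact binomial test. The intervals of the pairs cover counting error only.

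Partners from the same locus were compared in the same way. Mir214 and Mir199a-2, of the same host, had a ratio of 70.2 and 67.4 reads, a change of 0.959-fold (0.774 to 1.19, exact adjusted p = 0.708). A change within that interval would not be seen at this depth. For Mir143 and Mir145a the ratio was 33.8 in replicate 1 and 41.6 in replicate 2, a change of 1.23-fold (1.16 to 1.30, exact adjusted p = 8.64e-13). The difference between these 2 changes was not tested.

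Mir199b was set against both genes of Dnm3os. Its ratio to Mir214 changed, with 51.1 reads of Mir214 per read of Mir199b in replicate 1 and 38.7 in replicate 2 (0.757-fold, 0.637 to 0.899, exact adjusted p = 0.00223). Its ratio to Mir199a-2 went from 1.37 to 1.74 (1.27-fold, 0.962 to 1.67, exact adjusted p = 0.112), which is within counting error. Mir145a had a change against Mir214 (Mir214 over Mir145a 0.686-fold, 0.646 to 0.729, exact adjusted p = 7.34e-34) and none past the threshold against Mir199b (1.10-fold, 0.922 to 1.32, exact adjusted p = 0.312).

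**Figure D4:**
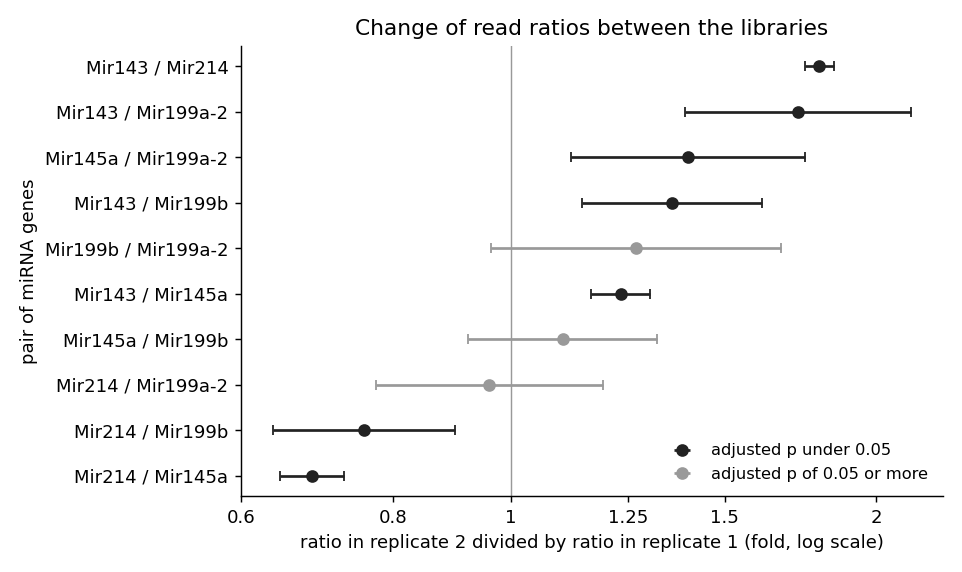
Change of the read ratio of 2 genes between the libraries (replicate 2 over replicate 1, fold, log axis) for 10 pairs, with 95% intervals that cover counting error; black points have an adjusted p under 0.05. The ratio of Mir143 to Mir214 changed most, by 1.80-fold, and that of Mir214 to Mir199a-2 stands at 0.959-fold with an interval across 1.

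As shares of all sense miRNA reads, Mir143 with Mir145a held 2.35% (Wilson 95% interval 2.33% to 2.36%) in the first library and 2.99% (2.97% to 3.01%) in the second. Mir199a-2 with Mir214 held 0.396% (0.389% to 0.402%) and 0.282% (0.277% to 0.287%). In tissue of mixed cells, fewer cells of a type and less of the miRNA per cell cannot be told apart.

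Other miRNAs of the same cell types were counted by the same rule. The calls go beyond counting error only, which 17.0% (higher) and 24.3% (lower) of all tested genes did, whereas the negative binomial test called 10 of 395 genes, and no list was tested as a group. Of 7 miRNAs known from smooth muscle and pericyte states, 0 were called higher and 1 lower in replicate 2, with a median log2 ratio of -0.079. The one called lower, Mir21a, an abundant miRNA of activated stroma, stood at 4564 and 4252 CPM, and Mir204, the next in level, at 153.2 and 145.1 CPM (exact adjusted p = 0.513). Among 6 miRNAs of fibroblasts and matrix, 3 were called higher and 1, again Mir21a, lower, with a median of 0.27. Those higher were Mir22 at 3208 and 4157 CPM, and Mir29a (107 and 134 CPM) and Mir29c (34.7 and 45.8 CPM), which are known to repress collagen genes. Of 4 miRNAs of cartilage and skeletal mesenchyme, 1 was called higher and 2 lower, with a median of 0.060. Mir335, in the Mest gene, was higher at 20096 and 23788 CPM. Mir140, a miRNA of cartilage, was lower at 818 and 751 CPM, as was Mir455 at 632 and 572 CPM.

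Markers of further cell types were read in the same way. For 11 striated muscle genes summed levels of uniquely placed reads in replicates 1 and 2 were 116659 and 96099.7 CPM. Nearly all of this was Mir206, the only one called lower, so the sum describes Mir206 and not the list. Of the 9 tested, 3 were called higher, Mir208b, Mir486 and Mir1a-2 (whose mature miRNA Mir1a-1 also makes, so that its count is uncertain), 5 did not pass, and the median log2 ratio was 0.31. Mir1a-1 (12 and 15 reads), Mir133a-1 (9 and 22) and Mir133a-2 (2 and 6) are numbered copies too. Their counts may likewise miss reads that match several places. For 2 endothelial genes the sums were 42036 and 46314 CPM, with Mir126a called higher and Mir126b at 0 reads. For 7 epithelial genes they were 197 and 125 CPM, with 4 of 6 tested called lower (Mir200b, Mir200c, Mir203 and Mir205). For 5 leukocyte genes they were 1099 and 974 CPM, with Mir142, Mir146 and Mir223 called lower and 2 not past the threshold. For 2 erythroid genes they were 2066 and 1865 CPM, with Mir451a called lower and the other not past the threshold. For 8 neural genes they were 289 and 539 CPM, with both tested genes, Mir137 and Mir338, called higher. Another 4, Mir9-2, Mir124a-1, Mir124a-2 and Mir124a-3, had no reads. Shared sequence was not searched for in the genes of these lists, and reads matching several places were left out. A low count or 0 reads on such numbered copies therefore need not mean a low level. The part of these cells in the shifts of Mir143 and Mir214 was not tested.

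The genes of at least 100 CPM whose log2 ratio came nearest to that of Mir143 were Mir374b (0.36), Mir22 (0.37) and Mir30e (0.33). Nearest to Mir214 were Mir203 (-0.48), Mir493 (-0.47) and Mir483 (-0.47). The likeness is a single ratio of 2 libraries and says how close the values are, no more.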

How the data were processed

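The deposited files hold raw read counts per miRNA gene, unstranded, sense and antisense, with 4 summary rows, which were left out of totals and tests. The build was mm10 and the annotation GENCODE M21, per the text descriptions deposited with the counts. The aligner and its version were not given in the sources used here, nor were trimming and filters. Column strand was read from the layout known from STAR and from the column totals. Reads in the file numbered 8152102 and 10176117, of which 43.1% and 38.8% were sense reads on miRNA genes. Reads carry no molecular identifiers.

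Symbols came from GENCODE M21 and the printed sequences from RefSeq, of which chromosome 18 was left out. The 2 libraries were compared by a two-sided exact conditional binomial test given the sense totals, Benjamini-Hochberg adjusted over all genes with a summed count of 10 or more (scipy 1.17.1). Log2 ratios had 0.5 added to each count. With 1 library on each side, edgeR's quasi-likelihood test and DESeq2 could not be fitted. edgeR 4.0.16 gave TMM factors, the common dispersion (at least 10 counts in each library) and an exact negative binomial test, and DESeq2 1.42.0 gave size factors. Scripts were tested on simulated data. The labels number biological replicates, read here as separate animals. They give both the same donor entry, read here as one for the strain. All p-values compare these 2 libraries only. Those of the binomial and Fisher tests cover counting error alone, and those of the negative binomial test take in the common dispersion as well.

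All 7 genes were named. Beyond them the text names the 2 highest genes of the smooth muscle, fibroblast and skeletal mesenchyme lists, the neighbours in level and the 3 genes nearest in ratio. Other list members were named after their values were seen, because they passed the threshold or bear on a sum. The genes and lists were chosen with earlier results of these data known.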

Additional observations from a re-analysis of the deposited data

How the results depend on the processing

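Alternatives were TMM factors, median-of-ratios size factors, scaling to all reads in the file or to the sense total without Mir206, the unstranded column, other count filters, 2 added to each count, and the negative binomial test. The log2 ratios of Mir143 (0.36) and Mir214 (-0.49) kept their direction under all of these (0.21 and -0.64 with scaling to all reads), and their calls under all but the negative binomial test, where both had an adjusted p of 1, as did Mir199a-2. That test left 0 called genes of the 5 in either direction. Median-of-ratios size factors gave 2 higher genes in place of 1, as Mir145a passed (log2 ratio 0.11, exact adjusted p = 0.0190). Scaling to all reads moved the median log2 ratio of all genes by -0.15 and turned Mir145a to -0.094 (exact adjusted p = 0.0445). Over all tested genes, calls of 67 higher and 96 lower became 32 and 146 with that scaling and 5 and 5 with the negative binomial test. With the 2-fold limit, 13 and 15 became 5 and 5 with the latter, and 15 lower became 7 with at least 10 counts in each library. The mean share of Mir143 with Mir145a, 2.67%, became 3.20% unstranded and 1.09% of all reads, and 2.35% to 2.99% with either library alone. That of Mir199a-2 with Mir214, 0.339%, became 0.140% of all reads and 0.282% to 0.396% with either library alone. Depth limits Mir145b, with 0 reads, and the miR-199 genes, whose counts are limited by shared sequence as well.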

Other observations

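Outside the sense counts, the loci of the 7 genes gave almost no antisense counts. Replicate 1 had 0 such reads and replicate 2 had 2, both on Mir214, fewer than the 3 counts that a count of 0 allows. Gm23363, an annotated miRNA gene 116 bases from Mir199b on the same strand, had 0 reads in replicate 1 and 2 in replicate 2.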
